A study of Mus musculus with 8 samples.

Results

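The lipid genes of the sebaceous gland were followed in mouse wound skin with and without Z1C2Z. They were Fasn, Scd1, Scd3, Elovl3, Elovl4, Far2, Awat1, Awat2, Soat1 and Mc5r. The genes were chosen by name, and all 10 were found by gene symbol among the 18540 genes of the count table. RNA-seq had been run on 4 control samples and 4 samples treated with Z1C2Z, a nanocomposite of zinc peroxide and cerium dioxide on the metal organic framework ZIF-8 with the higher share of cerium dioxide of the study's composites. The sample titles separate a control set from an experimental set, and the study's heat map uses the same sample numbers for its control and Z1C2Z columns, while the methods and running text call the sequenced treatment only ZCZ, the name of the composites in general. The treated wounds were taken after 15 days of treatment. In the wound experiments the composite was injected around the wound at 100 μg/kg, and control wounds received PBS. Wounds had been made in C57BL mice and in diabetic db/db mice, a pair on each back. The strain, age and sex of the sequenced mice, and which samples share a mouse, are not given in the sources used here. The p-values therefore measure the spread between these samples, which may be technical.

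Sebaceous glands sit beside hair follicles. Their cells, the sebocytes, fill with lipid droplets and then burst, so that the whole cell becomes sebum. Mouse sebum is rich in wax esters and sterol esters. Fasn builds saturated fatty acids, Scd1 and Scd3 desaturate them, and Elovl3 and Elovl4 lengthen them. Far2 reduces fatty acyl-CoA to fatty alcohols, which Awat1 and Awat2 join to another acyl-CoA to form wax esters, while Soat1 esterifies cholesterol. Mc5r is a receptor for melanocortin peptides that is known for its role in sebum output in mice. Fasn and Soat1 are used by many cell types besides sebocytes, and Elovl3 is also a gene of brown fat.

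The stretches of 250 bases before the annotated starts of Scd3 and the wax synthases Awat1 and Awat2 are shown because Scd3 and Awat2 had the most uneven control samples, and Awat1 is the X-linked neighbour of Awat2 with a smaller difference between the groups. They come from RefSeq on GRCm38.p6, 5′ to 3′ on the gene's strand, in lower case with motif matches in capitals. The Scd3 window was chr19:44203038-44203287 on the plus strand, and that of Awat1 was chrX:100571997-100572246 on the plus strand. Awat2 had 2 starts, both on the minus strand, with windows chrX:100442718-100442967 and chrX:100412588-100412837.
Scd3: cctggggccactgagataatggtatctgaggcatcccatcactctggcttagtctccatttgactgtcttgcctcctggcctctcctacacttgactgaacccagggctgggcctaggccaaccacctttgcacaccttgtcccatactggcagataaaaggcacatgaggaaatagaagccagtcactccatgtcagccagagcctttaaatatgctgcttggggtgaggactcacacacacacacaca
Awat1: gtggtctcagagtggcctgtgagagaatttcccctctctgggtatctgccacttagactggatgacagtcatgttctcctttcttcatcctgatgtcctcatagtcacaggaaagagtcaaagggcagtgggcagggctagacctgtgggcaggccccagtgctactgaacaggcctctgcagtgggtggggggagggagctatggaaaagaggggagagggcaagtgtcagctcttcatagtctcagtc
Awat2, start 1: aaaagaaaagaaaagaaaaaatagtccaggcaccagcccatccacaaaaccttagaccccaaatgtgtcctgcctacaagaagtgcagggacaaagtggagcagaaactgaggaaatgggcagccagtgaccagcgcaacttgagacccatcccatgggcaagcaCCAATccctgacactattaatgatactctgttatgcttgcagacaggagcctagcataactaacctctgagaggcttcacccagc
Awat2, start 2: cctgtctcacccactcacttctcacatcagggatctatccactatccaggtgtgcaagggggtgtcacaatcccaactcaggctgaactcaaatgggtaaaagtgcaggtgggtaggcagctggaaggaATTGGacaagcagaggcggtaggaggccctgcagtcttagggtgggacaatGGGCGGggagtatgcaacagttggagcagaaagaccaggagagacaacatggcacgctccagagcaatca

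Both strands were searched for 6 motifs: AGGTCA (nuclear receptor site), CCAAT (bound by NF-Y), TATAAA (the start site box), GGGCGG (Sp1 box), CACGTG (E box) and TGACGTCA (cAMP response element). No motif is contained in another. The Scd3 and Awat1 windows held none of these letters. The first Awat2 window held CCAAT 85 bases before the start. The second held CCAAT on the opposite strand, printed as ATTGG, 121 bases before the start and GGGCGG 70 bases before it. Of 32851 promoter windows of the same length, 33.85% held CCAAT and 32.74% held GGGCGG. RefSeq windows were matched for 7 of the 10 genes, and those of Fasn, Elovl4, Far2 and Soat1 held CCAAT or GGGCGG only. Scd1, Elovl3 and Mc5r were not matched among the windows searched. For the 10 genes, the windows of a single chromosome were left out of the search, which was not done for the 32851 windows. A match is a run of letters and not a binding site.

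The libraries held 28856790 to 38974888 counts, the fewest in control-1. The 8 samples were not alike within the groups. Control-1 was the highest control sample for 8 of the 10 genes and the highest of all 8 samples for 4 of them, whereas among all genes tested it was the highest control for 31.4% and the highest of all samples for 15%. Z1C2Z-2 and Z1C2Z-4 lay at the treated end of the first principal component (65.7 and 67.7, against 28.1 for Z1C2Z-1 and -0.29 for Z1C2Z-5), which held 62.2% of the variance. At its other end lay control-5 and control-1 (-62.9 and -50.6), against -35.5 for control-2 and -12.2 for control-3. Values without control-1, or without Z1C2Z-2 and Z1C2Z-4, are therefore given beside those they moved most. Control-1 was singled out by its high values for these genes, so leaving it out favours higher fold changes. The adjusted p-values without it are therefore descriptions.

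Of the 10 sebaceous gland lipid genes, Mc5r alone rose, 2.08-fold, and none fell. To be called, a gene needed a log2 fold change beyond 1 in either direction and an edgeR adjusted p under 0.05 (quasi-likelihood test, Benjamini-Hochberg over all genes tested). All 10 passed the low-count filter, as did 15147 genes of the table, of which 2.15% were called higher and 1.25% lower (3.4% together). DESeq2 called the same gene and none lower, where it called 2.86% of all genes higher and 2.2% lower. Mc5r was also the only gene of the 10 whose 4 Z1C2Z samples lay above all 4 control samples, which held for 8.45% of all genes. None lay below, against 8.82%. The median log2 fold change of the 10 was 0.19, beside 0.01 over all genes tested, with 8 of 10 above 0 against 51.1% of all genes. That median moved with single samples, to 0.42 without control-1 and 0.08 without control-2, and it was 0.08 without Z1C2Z-2 and Z1C2Z-4. In tissue RNA, fewer sebocytes and less RNA per sebocyte cannot be told apart, and the same holds for more.

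**Figure D1:**
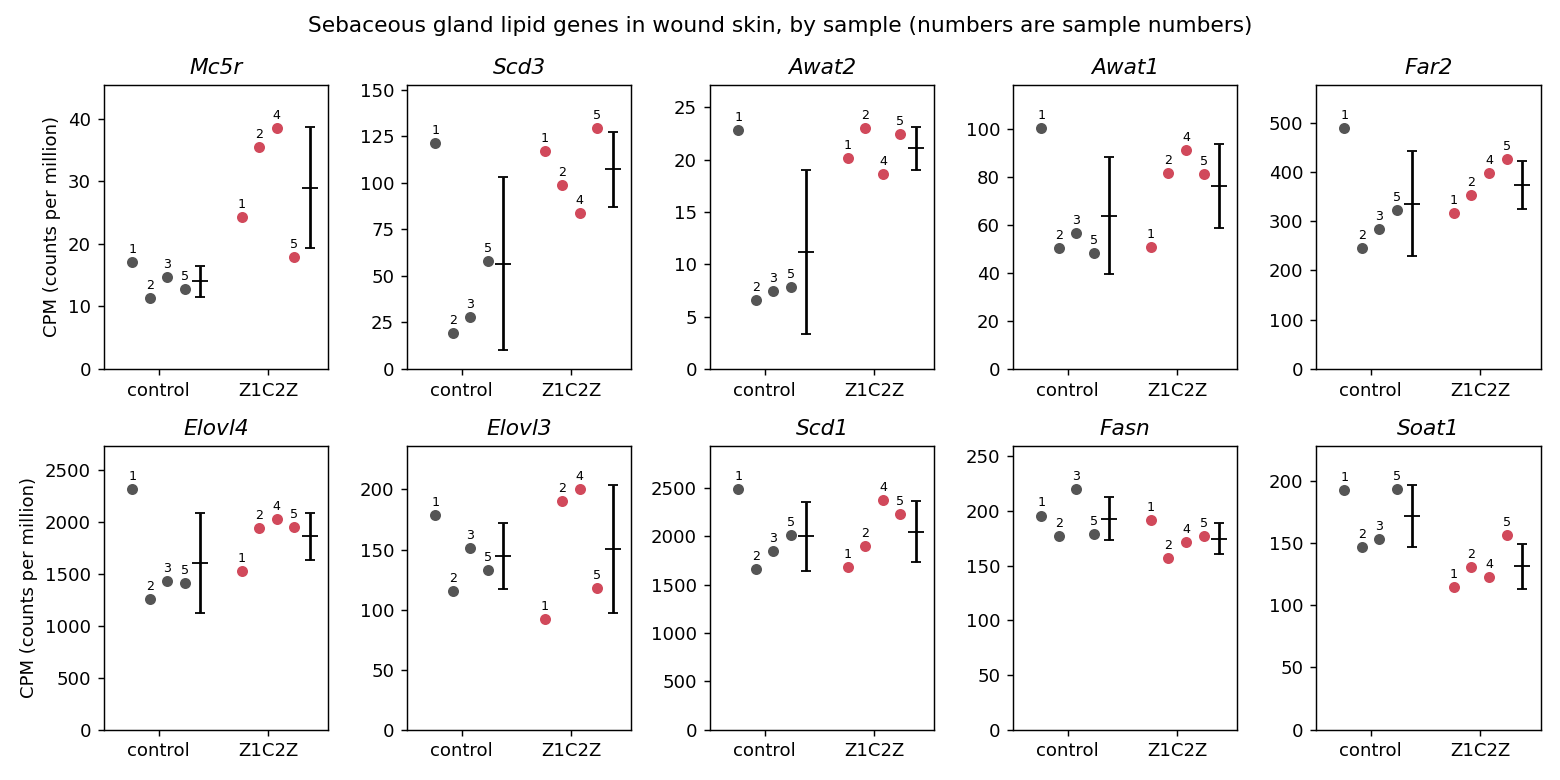
Level of each gene in CPM (reads scaled to the library total, linear axes from 0) in each control (grey) and Z1C2Z (red) sample, with sample numbers and the mean ± SD of 4 samples beside the points. Mc5r is the only gene whose groups do not overlap (11.3 to 17.2 in control, 17.8 to 38.5 in Z1C2Z), and control-1 stands above the other control samples for Awat2, Awat1 and Elovl4.

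Fasn, the enzyme that builds palmitate from acetyl units, was even across the samples. Its level was 196, 177, 220 and 179 CPM in the control samples numbered 1, 2, 3 and 5, and 192, 157, 172 and 177 CPM in the Z1C2Z samples numbered 1, 2, 4 and 5. The samples of both groups were interleaved. The mean was 193 ± 19.9 CPM in control and 175 ± 14.4 CPM in Z1C2Z (SD, n = 4 per group), and the log2 fold change was -0.14 (95% interval -0.37 to 0.09, edgeR adjusted p = 0.385).

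The desaturases Scd1 and Scd3 gave unlike values, and neither passed the test. Scd1, the more abundant, was measured at 2489.7, 1659, 1844 and 2014 CPM in the control samples and at 1686, 1900.3, 2375 and 2234 CPM in the Z1C2Z samples, in the order of sample numbers used above and below. Its groups overlapped throughout, with a log2 fold change of 0.03 (SE 0.16, 95% interval -0.32 to 0.39, edgeR adjusted p = 0.911).

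Scd3, a desaturase that in skin marks sebocytes more narrowly, had 121, 19.2, 28.0 and 57.9 CPM in the control samples and 117, 98.6, 83.8 and 129 CPM in the Z1C2Z samples. Control-1 lay within the Z1C2Z range, and the other 3 control samples lay below it. The highest control was 6.33 times the lowest, whereas the Z1C2Z samples spanned 1.54 times. With means of 56.6 ± 46.2 CPM in control and 107 ± 20.0 CPM in Z1C2Z, the log2 fold change was 0.92 (SE 0.50, 95% interval -0.19 to 2.04) and did not pass the test (edgeR adjusted p = 0.257). The exact two-sided permutation test over the samples gave p = 0.114. Without control-1 the log2 fold change was 1.61 (SE 0.36, edgeR adjusted p = 0.0399). Scd1 and Scd3 share 167 of the 50-base stretches of their exons, out of 4888 in Scd1 and 3499 in Scd3, and how the authors assigned such reads is not given in the sources used here.

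Counted within each sample, Scd3 had 4.87, 1.16, 1.52 and 2.88 reads per 100 reads of Scd1 in the control samples and 6.94, 5.19, 3.53 and 5.78 in the Z1C2Z samples. Control-1 again lay among the treated samples. The mean ratio was 2.61 ± 1.68 in control and 5.36 ± 1.42 in Z1C2Z.

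Neither elongase passed the test between the groups. Elovl4, which makes the very long fatty acids of barrier lipids and sebum, was measured at 2321, 1257, 1437 and 1412 CPM in the control samples and at 1533, 1944, 2036 and 1954 CPM in the Z1C2Z samples. Control-1 was the highest of all 8 samples, and the other 3 controls were lower than every Z1C2Z sample. The log2 fold change was 0.22 (SE 0.20, 95% interval -0.23 to 0.66, edgeR adjusted p = 0.503). It was 0.44 without control-1 (SE 0.13, edgeR adjusted p = 0.0597) and 0.12 without control-2 or without Z1C2Z-2 and Z1C2Z-4.

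Elovl3, an elongase of sebocytes, had 179, 115, 151 and 133 CPM in the control samples and 92.1, 191, 200.4 and 118 CPM in the Z1C2Z samples. The treated samples split, with Z1C2Z-2 and Z1C2Z-4 above all controls and Z1C2Z-1 below all controls. The log2 fold change was 0.06 (SE 0.25, 95% interval -0.51 to 0.62, edgeR adjusted p = 0.904), and it turned to -0.46 without Z1C2Z-2 and Z1C2Z-4 (edgeR adjusted p = 0.382). Per 100 reads of Elovl4, Elovl3 had 7.71 to 10.5 reads in the control samples, 9.81 and 9.84 in Z1C2Z-2 and Z1C2Z-4, and 6.01 and 6.03 in Z1C2Z-1 and Z1C2Z-5.

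Far2, which supplies the fatty alcohols, was measured at 489, 246, 284 and 323 CPM in the control samples and at 317, 352, 398 and 426 CPM in the Z1C2Z samples. Control-1 was again the highest of all, and the groups overlapped. The log2 fold change was 0.16 (SE 0.20, 95% interval -0.31 to 0.62, edgeR adjusted p = 0.654). It was 0.39 without control-1 (SE 0.14, edgeR adjusted p = 0.101) and 0.0335 without control-2. In the mouse GENCODE M21 annotation, Far2 exons overlap those of Ergic2 on the opposite strand over 837 bases and those of Far2os2 over 81 bases. The libraries mark strand, but the strand setting of the counting is not given in the sources used here.

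Of the wax synthases, as of these desaturases, the less abundant had the larger log2 fold change, a contrast that was not tested. Awat1 had 100.1, 50.4, 56.6 and 48.1 CPM in the control samples and 50.9, 81.5, 90.9 and 81.2 CPM in the Z1C2Z samples. Control-1 lay above every treated sample and Z1C2Z-1 lay among the other controls. The log2 fold change was 0.26 (SE 0.26, 95% interval -0.33 to 0.84, edgeR adjusted p = 0.552). It was 0.55 without control-1 (SE 0.19, edgeR adjusted p = 0.0910) and 0.0505 without Z1C2Z-2 and Z1C2Z-4.

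Awat2 had 22.8, 6.55, 7.44 and 7.86 CPM in the control samples and 20.2, 23.0, 18.6 and 22.5 CPM in the Z1C2Z samples. The treated samples were close together, with a coefficient of variation of 9.67% against 69.8% in control, where control-1 lay within the treated range and the other 3 lay far below it. The means were 11.2 ± 7.80 and 21.1 ± 2.04 CPM, a log2 fold change of 0.92 (SE 0.37, 95% interval 0.08 to 1.77). It did not pass the test over all genes (unadjusted p = 0.0356, edgeR adjusted p = 0.147), and the exact two-sided permutation test gave p = 0.114. Without control-1 the log2 fold change was 1.53 (SE 0.12, edgeR adjusted p = 0.0252). Per 100 reads of Awat1, Awat2 had 22.8, 13.0, 13.1 and 16.3 reads in the control samples and 39.7, 28.2, 20.5 and 27.7 in the Z1C2Z samples, with Z1C2Z-4 below control-1.

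**Figure D2:**
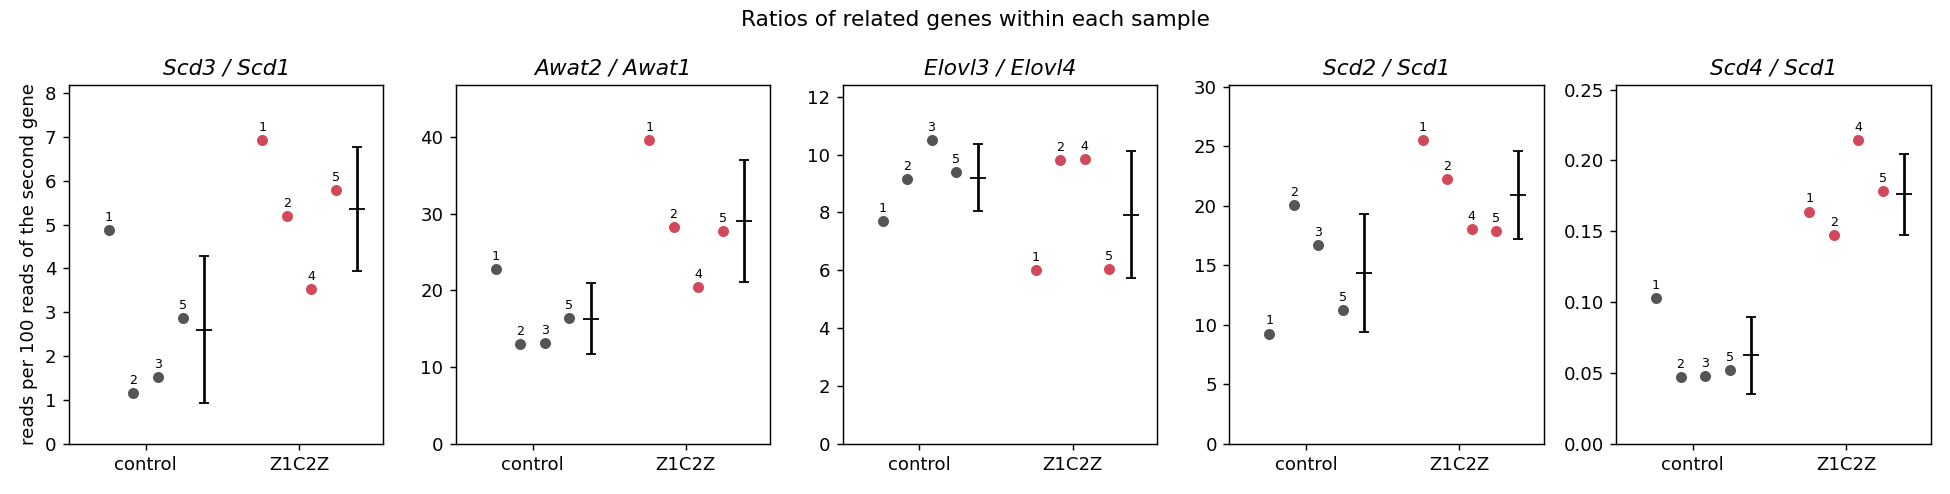
Reads of the first gene per 100 reads of the second gene within each control (grey) and Z1C2Z (red) sample, with the mean ± SD of 4 samples, on linear axes from 0. The Scd3 to Scd1 ratio averages 2.61 in control and 5.36 in Z1C2Z with control-1 inside the treated range, and the Scd4 to Scd1 ratio is the only one of the 5 without overlap (0.047 to 0.103 against 0.147 to 0.215).

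Soat1, which makes the sterol esters of sebum and also serves macrophages and the adrenal gland, was the gene with the lowest log2 fold change of the 10. It had 193, 147, 153 and 194 CPM in the control samples and 114, 131, 123 and 157 CPM in the Z1C2Z samples. Only Z1C2Z-5 reached into the control range. The means were 172 ± 25.1 and 131 ± 18.2 CPM, a log2 fold change of -0.39 (SE 0.13, 95% interval -0.69 to -0.08). The unadjusted p was 0.0181 and the edgeR adjusted p was 0.102, so the difference did not pass over all genes. The exact two-sided permutation test gave p = 0.0857. DESeq2 gave an adjusted p of 0.0435 for the same log2 fold change of -0.39.

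Mc5r, the melanocortin receptor, was the one that rose. Per length it had the lowest mean of the 10 genes in both groups, but within the SDs it could not be ordered against Awat2. It had 483, 406, 533 and 456 counts in the control samples and 859, 1370, 1533 and 643 counts in the Z1C2Z samples. In CPM these were 17.2, 11.3, 14.7 and 12.8 in control and 24.2, 35.5, 38.5 and 17.8 in Z1C2Z. The groups did not overlap, but Z1C2Z-5 lay only just above control-1, while Z1C2Z-2 and Z1C2Z-4 lay far above all controls.

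The means of Mc5r were 14.0 ± 2.53 CPM in control and 29.01 ± 9.66 CPM in Z1C2Z, a log2 fold change of 1.05 (SE 0.24, 95% interval 0.50 to 1.60, edgeR adjusted p = 0.0378). The exact two-sided permutation test gave p = 0.0286, the smallest that 4 against 4 samples allow. There were 722 genes with a smaller p. Over 17 alternative settings the log2 fold change ran from 0.59 to 1.23 and the adjusted p from 0.000711 to 0.332, under 0.05 in 7 of them. Without Z1C2Z-2 and Z1C2Z-4 it was 0.59 (edgeR adjusted p = 0.332), a setting in which no gene of the table reached an adjusted p under 0.05 and 1980 had an unadjusted p under 0.05.

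**Figure D3:**
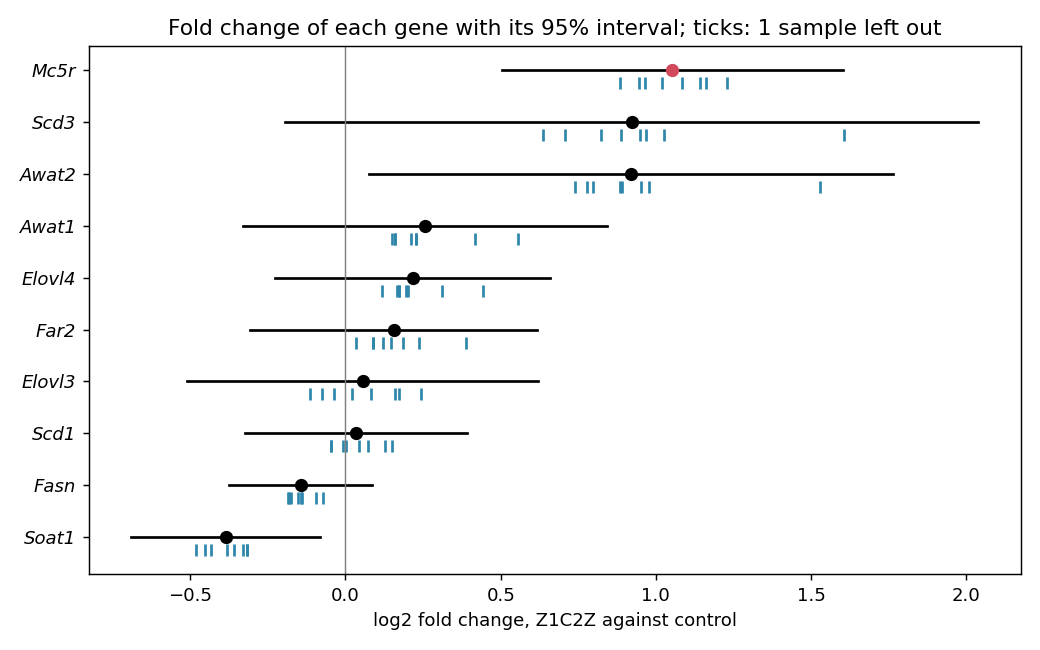
log2 fold change of each gene, Z1C2Z against control, from edgeR's fit on 8 samples (points) with its 95% interval (lines); the blue ticks give the value with 1 sample left out. Mc5r (red, 1.05) is the called gene, and the ticks of Scd3 and Awat2 reach 1.61 and 1.53 when control-1 is left out.

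Leaving out control-1 raised the number called higher from 1 to 3, namely Mc5r, Scd3 and Awat2, where 1.85% of all genes were called higher and 1.63% lower. The genes whose Z1C2Z samples all lay above the remaining controls then numbered 4, with Elovl4 as the fourth. The share over all genes was not computed for this setting, and fewer controls are more easily separated. Leaving out control-5 as well left 2 called, Scd3 at 2.18 and Awat2 at 1.58 on the log2 scale (edgeR adjusted p = 0.0459 for both), while Mc5r was at 1.15 (edgeR adjusted p = 0.117). In that setting 4 genes of the table, 0.0259%, were called higher and 0.0583% lower. No label sets control-1 apart from the other controls. It was singled out by its values for these genes, and it was kept in every main value.

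**Figure D4:**
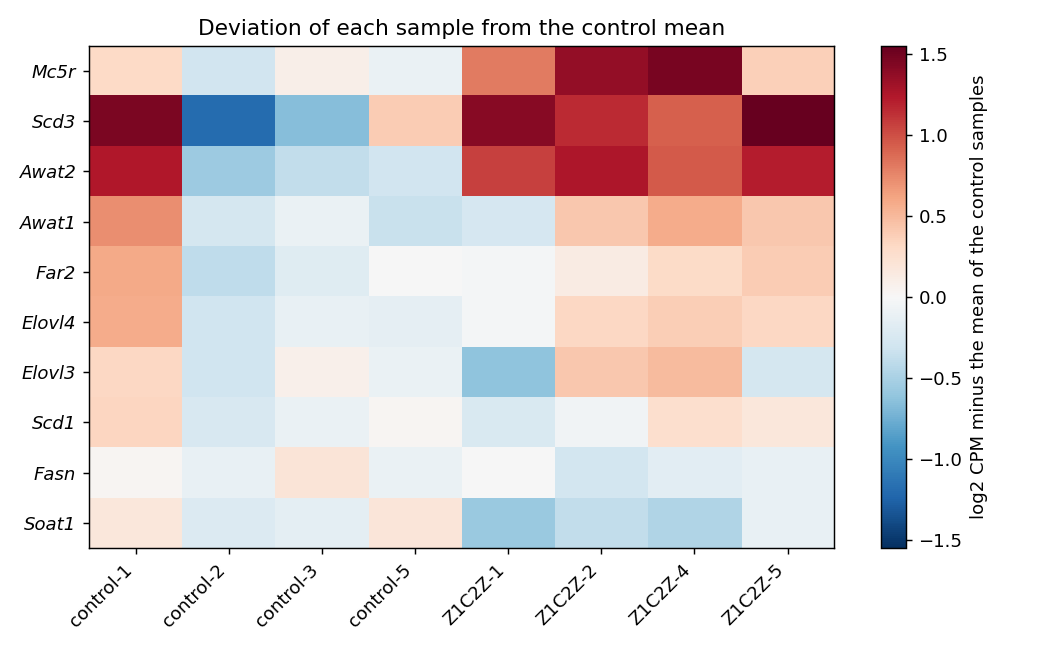
Deviation of each sample (columns) from the mean of the control samples for each gene (rows), as a difference in log2 CPM, red above and blue below the control mean. Control-1 is red in nearly every row with control-2 blue, and Z1C2Z-2 and Z1C2Z-4 are darkest for Mc5r. All Z1C2Z samples are blue for Soat1, and Z1C2Z-1 is also blue for Elovl3, Scd1 and Awat1, among others.

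Levels of the genes were compared per kilobase of exon, with exon lengths from GENCODE M21, since the authors' annotation is not given in the sources used here. In control, Elovl4 (531 ± 160 CPM per kb) and Scd1 (409 ± 72.8) led, within 1 SD of each other. Elovl3 (73.2 ± 13.8), Awat1 (45.9 ± 17.6) and Far2 (45.9 ± 14.6) followed and overlapped in turn. Fasn (17.6 ± 1.81), Soat1 (17.5 ± 2.56) and Scd3 (15.9 ± 13.0) could not be ordered, and Awat2 (5.25 ± 3.67) and Mc5r (3.58 ± 0.649) were lowest.

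In Z1C2Z the order was the same but for Scd3. At 30.2 ± 5.63 CPM per kb it stood above Fasn (15.9 ± 1.31) and Soat1 (13.4 ± 1.86) by more than their SDs, and below Far2 (51.1 ± 6.65). Elovl4 was at 617 ± 74.7 and Scd1 at 419 ± 64.0 CPM per kb, while Elovl3 (76.1 ± 27.1) and Awat1 (54.8 ± 12.5) overlapped. Awat2 (9.91 ± 0.959) and Mc5r (7.43 ± 2.47) again came last.

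The sample was checked for sebaceous cells with other genes of the gland. Pparg, Cidea and Mgst1 are named as known sebocyte genes, with Cidec beside Cidea. All 4 are outside the rule for naming and were named after their values were seen. Krt79, a keratin of the follicle canal and sebaceous duct, was at 620 and 814 CPM in control and Z1C2Z (edgeR adjusted p = 0.241). Pparg, the regulator of sebocyte and fat cell maturation, was at 21.3 and 20.8 CPM (edgeR adjusted p = 0.894). Cidea, a lipid droplet protein, was at 31.1 and 41.7 CPM (edgeR adjusted p = 0.268). Cidec of the same list went the other way, at 44.1 and 30.3 CPM (edgeR adjusted p = 0.0985). Mgst1, a glutathione transferase used as a sebocyte marker, was at 222 and 194 CPM (edgeR adjusted p = 0.443). Of 20 genes listed for the sebaceous lineage and its lipid droplets, all tested, none was called higher and 1 was called lower. That gene was Cd44, a hyaluronan receptor of many cell types, at 838 ± 119 CPM in control and 416 ± 48.8 CPM in Z1C2Z (log2 fold change -1.01, edgeR adjusted p = 0.0280). The median log2 fold change of the list was 0.02, with 11 of the 20 genes above 0 and 9 below. Sox9, a transcription factor of follicle stem cells and the outer root sheath named here after its value was seen, was higher by less than the fold threshold (0.82, edgeR adjusted p = 0.0303).

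Among 30 further genes for fatty acid supply, elongation and desaturation, 29 were tested, none was called, and the median log2 fold change was -0.01. By the adjusted p alone, 2 rose and 1 fell, against 4.28% and 3.85% of all genes. Scd2, another desaturase that is used outside the gland as well, rose from 274 ± 54.2 to 420.0 ± 14.3 CPM without overlap (log2 fold change 0.61, edgeR adjusted p = 0.0352). Elovl6, which lengthens palmitate, was at 534 ± 86.2 and 712 ± 63.7 CPM (0.42, edgeR adjusted p = 0.0742).

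Of the same list, Fads6 (0.78, edgeR adjusted p = 0.0299), a member of the fatty acid desaturase family, rose and the acyl-CoA ligase Acsl4 fell (-0.66, edgeR adjusted p = 0.0426). Scd4, the remaining desaturase of the Scd cluster, had 0.78 to 2.56 CPM in control and 2.76 to 5.10 CPM in Z1C2Z without overlap (1.49, edgeR adjusted p = 0.0553). Fads6, Acsl4 and Scd4 were chosen after their values were seen. In the annotation the 4 genes lie side by side on chromosome 19 in the order Scd3, Scd2, Scd4 and Scd1.

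Of 19 genes for wax ester, ether lipid and triglyceride assembly, 18 were tested, none was called and the median log2 fold change was -0.23. In 6 of the 18 all Z1C2Z samples lay below all control samples, against 8.82% of all genes. In 1, Agpat3, they lay above, against 8.45%. Far1, the reductase that supplies ether lipids, was at 237 ± 22.4 CPM in control and 189 ± 11.0 CPM in Z1C2Z without overlap (-0.33, edgeR adjusted p = 0.0626). Dgat2, a triglyceride synthase, was at 91.2 and 96.9 CPM (edgeR adjusted p = 0.668). Agpat3, an acyltransferase of phospholipid synthesis chosen after its value was seen, passed the adjusted p alone (0.34, edgeR adjusted p = 0.0348). Dgat2l6, also chosen after its value was seen, which lies between Awat2 and Awat1 on the X chromosome, had 8.82 to 36.1 CPM in control and 21.0 to 33.1 CPM in Z1C2Z, with control-1 again highest.

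Of 24 genes for cholesterol synthesis and uptake, none was called and the median was 0.00 on the log2 scale. Hmgcs1, an early enzyme of sterol synthesis, was at 401 and 468 CPM in control and Z1C2Z (0.22, edgeR adjusted p = 0.245). Insig1, the sterol sensor that holds SREBP in check and again named after its value was seen, passed the adjusted p alone (0.75, edgeR adjusted p = 0.0395).

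Of 11 melanocortin genes listed, 6 were tested. Mc1r, the receptor of melanocytes, was called higher with 0.675, 0.749, 1.02 and 0.197 CPM in the control samples and 3.95, 5.31, 4.07 and 1.83 CPM in the Z1C2Z samples (log2 fold change 2.51, SE 0.48, edgeR adjusted p = 0.0303). As for Mc5r, Z1C2Z-5 was the lowest treated sample. Mrap, a melanocortin receptor accessory protein chosen after its value was seen, lay below all control samples in every Z1C2Z sample, at 1.83 ± 0.374 against 3.12 ± 0.356 CPM (-0.77, edgeR adjusted p = 0.0537). Mgrn1 and Atrn, accessory genes at 42.4 to 50.6 and 40.4 to 42.5 CPM by group mean, had edgeR adjusted p = 0.175 and 0.866. The peptide precursor gene Pomc, likewise chosen afterwards, did not pass the filter, with group means of 0.028 and 0.041 CPM.

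Hair genes moved with the groups. Of 12 hair shaft and inner root sheath markers, 11 were called higher, and their median log2 fold change was 3.56. Their summed level was 597, 2262, 3541 and 561 CPM in the control samples and 9061, 16139, 15739 and 4306 CPM in the Z1C2Z samples. The leading genes by p were Hoxc13 (2.11), a hair transcription factor, and the hair keratins Krt35 (2.47), Krt34 (4.83) and Krt81 (4.78), as log2 fold changes. Z1C2Z-2 and Z1C2Z-4, the highest samples for hair markers, were also the highest for Mc5r and Elovl3, and Z1C2Z-5, the lowest treated sample for hair markers, was the lowest treated sample for Mc5r. Elovl3 did not follow the hair markers in Z1C2Z-1, which lay above every control for hair markers but was the lowest sample for Elovl3 (92.1 CPM). Control-1, the highest control for Mc5r, Scd3 and Awat2, was among the lowest for hair markers. The part of the hair markers in the Mc5r result was not tested.

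**Figure D5:**
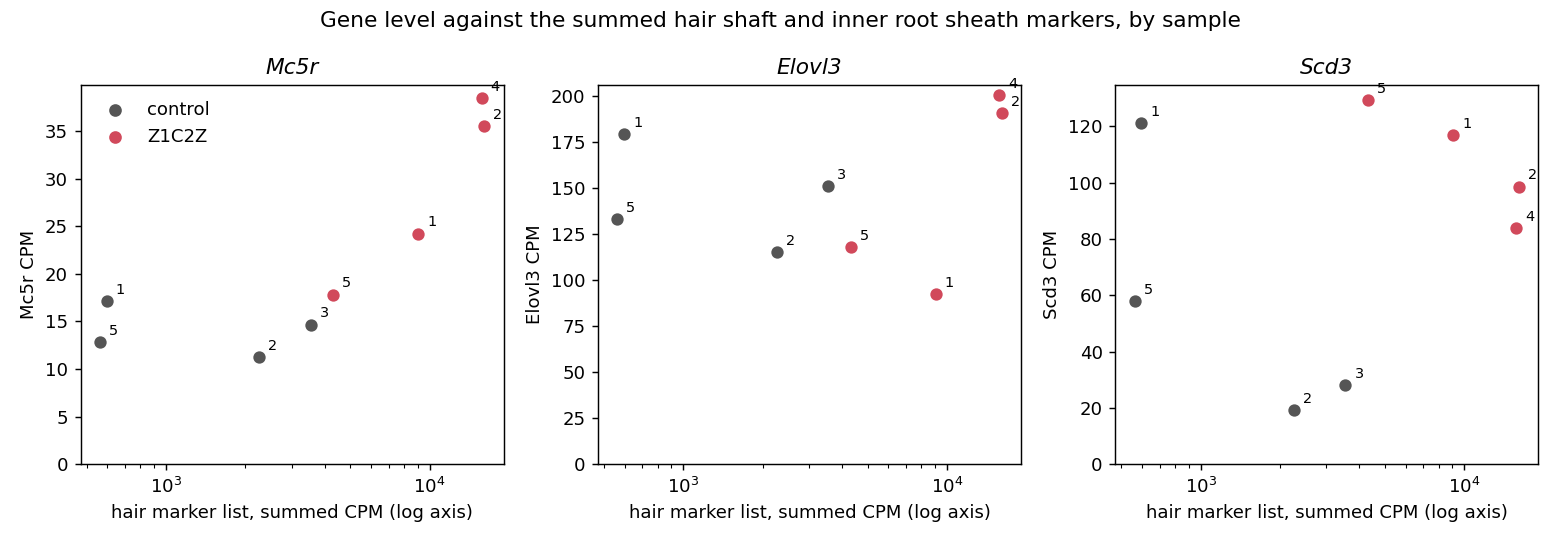
Level of Mc5r, Elovl3 and Scd3 in CPM (linear axes from 0) against the summed CPM of 12 hair markers (log axis) in each control (grey) and Z1C2Z (red) sample, with sample numbers. Z1C2Z-2 and Z1C2Z-4 lie at the top right for Mc5r and Elovl3, whereas Scd3 is highest in Z1C2Z-5 and control-1, which differ in hair markers (4306 and 597). Z1C2Z-1, at 9061 for hair markers, is the lowest sample for Elovl3.

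Other cells that use these lipid enzymes were examined in the same way. Of 9 white fat cell markers tested, none was called (median -0.24), and their summed level of 599 to 879 CPM in control and 580 to 950 CPM in Z1C2Z overlapped. Ucp1, the defining gene of brown fat and also chosen afterwards, was at 0.0070 CPM in control and 0.042 CPM in Z1C2Z on average, and none of the 4 brown fat markers tested was called (median -0.21). Of 8 epidermal markers none was called (median 0.31).

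Markers of 4 other cell types were lower in Z1C2Z by their medians, and none was called. The 8 muscle markers summed to 3114 to 5633 CPM in control and 2612 to 2903 CPM in Z1C2Z (median -0.60, 3 at an adjusted p under 0.05), highest in control-1. The 6 fibroblast markers summed to 54834 to 78015 CPM in control and 43054 to 60493 CPM in Z1C2Z (median -0.55, 2 at an adjusted p under 0.05). The medians were -0.37 over 8 macrophage markers and -1.14 over 6 neutrophil markers. The part of these shifts in the levels of the sebaceous gland lipid genes, including that of Soat1, was not tested.

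Genes whose pattern over the 8 samples was most like the mean standardized log2 CPM of the 10 genes were Prxl2a (Pearson's r = 0.967), Rdh11 (0.967), Pank1 (0.965), Snap91 (0.961) and Tmem139 (0.957). Spearman's rho was 0.81 to 0.95 among them, and r was 0.90 to 0.95 without control-1 and control-2, the samples farthest apart in the score. After each group's mean was subtracted, the 5 most alike were Pxmp4 (0.983), Spata5 (0.975), Pank1 (0.972), Rdh11 (0.972) and Prxl2a (0.972), of which 3 were shared with the first set. These are descriptions, chosen as the highest among all genes, over samples that share the position of control-1 and control-2. None of these genes passed the test between the groups. Rdh11, a retinol dehydrogenase, was at 105 and 112 CPM in control and Z1C2Z (edgeR adjusted p = 0.788).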

How the data were processed

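Skin wound RNA of 4 control and 4 Z1C2Z samples had been sequenced from rRNA-depleted, random-primed dUTP libraries. The labels name Trizol and the study's methods name a column kit for extraction. The table the authors deposited holds counts for 18540 genes, not normalized, beside KEGG and GO annotation. Aligner, counting program, genome build, annotation and strand setting are not given in the sources used here. No per-sample column was left unused, and 0 rows lacked a gene name. Samples were grouped by their titles, and no batch or date is labelled.

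The counts were fitted with edgeR 4.0.16 in R 4.3.3 after filterByExpr, TMM normalization, and the quasi-likelihood test without covariates, with Benjamini-Hochberg adjustment over all genes tested. The cutoffs for a call, a log2 fold change beyond 1 and an adjusted p under 0.05, are those printed on the study's volcano plot, whereas its methods name a fold change or an unadjusted p. CPM are counts scaled by edgeR to the TMM-adjusted library total. Replicates differed by more than counting noise: the smallest chi-square per degree of freedom among the 28 pairs was 19.1. At 28856790 to 38974888 counts, counting error is small beside the spread between samples over the table as a whole. It weighs more for genes with few counts, such as Mc1r with 7 to 37 counts in the control samples. The fitting script was tested on simulated data. Alternatives used DESeq2 1.42.0, limma 3.58.1 (voom), RLE and upper quartile factors, no filter or at least 10 counts in each library, a block for the sample number, and samples left out.

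The 10 genes, the other lists and the 2 pairs of samples left out together were chosen with earlier results of these data known. All 10 genes are named. Of each other list the rule named up to 4 called genes per direction by p and, where fewer than 2 were called, the 2 with the highest mean CPM, and genes outside it are marked as chosen after their values were seen. A gene that the rule names is not reported here. Shared sequence was counted as identical 50-base stretches of exons.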

Additional observations from a re-analysis of the deposited data

Results flagged for a closer look

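Control-1 stood apart from the other 3 control samples for 3 of the 10 genes by Dixon's ratio, the gap to the nearest sample divided by the range of the group (4 samples), which passed its 95% critical value. The ratio was 0.920 for Awat2, where control-1 had 22.8 CPM and the next control 7.86 CPM. It was 0.837 for Awat1, with 100.1 CPM against 56.6 CPM. It was 0.830 for Elovl4, with 2321 CPM against 1437 CPM, just past the critical value. Chance alone flags about 1 in 20 groups, and the 3 ratios rest on the same sample.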

How the results depend on the processing

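The number of sebaceous gland lipid genes called higher, 1 in the main fit on 8 samples, was 1 with DESeq2, RLE or upper quartile factors, either filter choice, or the adjusted p alone. It was 0 with limma voom (Mc5r 1.02, adjusted p = 0.0502) and 0 without Z1C2Z-2 and Z1C2Z-4, 2 without control-1 and control-5, and 0 to 3 with 1 sample left out, the 3 without control-1. Mc5r kept an adjusted p under 0.05 without control-1 (0.0408) or Z1C2Z-5 (0.0134) and lost it without any other single sample (0.0564 to 0.110), although its unadjusted p was under 0.05 in all 17 alternatives. With control-5 or any treated sample but Z1C2Z-5 left out, no gene of the table reached an adjusted p under 0.05 by edgeR, while 3100 to 4208 genes had an unadjusted p under 0.05. The number whose Z1C2Z samples all lay above control was 1 to 4 with 1 sample left out and 5 without control-1 and control-5, and the number below was 0 to 1, the 1 being Soat1 without Z1C2Z-5. The shares over all genes were not computed for these settings, where fewer samples are more easily separated. The cause of these changes between settings was not tested.

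The sign of values near 0 was not stable. Scd1 (0.0334) was -0.0311 without Z1C2Z-2 and Z1C2Z-4 and -0.0468 to 0.151 with 1 sample left out (-0.0457 without control-2, -0.0468 without Z1C2Z-4, -0.0094 without Z1C2Z-5). Elovl3 (0.06) was -0.0017 with limma voom, -0.46 without Z1C2Z-2 and Z1C2Z-4, and -0.11 to 0.24 with 1 sample left out (-0.04 without control-2, -0.08 without Z1C2Z-2, -0.11 without Z1C2Z-4). The other 8 genes kept their direction in all 17 alternatives.

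Sample numbers 1, 2 and 5 occur in both groups, but no label says that they pair mice. The deviations from the group means correlated at -0.10, -0.06 and 0.32. With no reference for unpaired samples beside them, these values cannot show whether samples of the same number share a mouse. With the number as a replicate block, 0 genes of the 10 were called, Mc5r was at 0.87 (adjusted p = 0.153), Scd1 at -0.0712 and Elovl3 at -0.13, and the genes called in the table numbered 271 higher and 184 lower. The numbers of control-3 and Z1C2Z-4 occur in a single group each. In that fit the difference between the groups therefore rests on the samples numbered 1, 2 and 5, without Z1C2Z-4, the highest sample for Mc5r.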
